A study of Homo sapiens with 4 samples.

Results

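The genes described here are 10 markers and regulators of the epithelial-mesenchymal state, namely VIM, CDH1, CDH2, ZEB1, ZEB2, SNAI1, SNAI2, TWIST1, FN1 and EPCAM. They were found in the count table by their symbols and are 10 of its 61541 genes. RNA sequencing was performed on the MDA-MB-231 line, human breast cancer cells long kept in culture that lack estrogen and progesterone receptors and are known for their mesenchymal appearance. Cadmium-resistant cells had been passaged in medium with cadmium sulfate raised to 10 µM, and control cells were the same line passaged in medium without it. Each group had 2 libraries (n = 2). They are called control 2, control 3, cadmium 1 and cadmium 2, after the numbers in the count table. The sources used here do not say whether the libraries of a group came from separately selected cultures, so p-values measure only the spread between these libraries.

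In an epithelium, neighbouring cells are held together by E-cadherin, and the cytoskeleton is built largely on keratins. During epithelial-mesenchymal transition, transcription factors of the ZEB, SNAIL and TWIST families bind E-box motifs in the promoters of epithelial genes and repress them, while vimentin, N-cadherin and fibronectin are produced in larger amounts. The microRNAs of the miR-200 family act in the other direction, because they bind the messages of ZEB1 and ZEB2 and lower their output. Breast cancer cells can occupy states between these ends, and a line in the mesenchymal state can still hold some epithelial transcripts.

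None of the 10 genes was called different between cadmium-resistant and control cells by DESeq2 (adjusted p-value below 0.1, Benjamini-Hochberg), where 225 of 19816 tested genes, or 1.14%, were called, 0.601% higher and 0.535% lower in cadmium-resistant cells. The transcript of CDH2 was the one member with an unadjusted p-value below 0.05, against 6.92% of all tested genes. The 2 groups did not overlap for 3 of the 9 members tested, with CDH2 and ZEB1 higher and VIM lower in the cadmium-resistant cells. Of all tested genes, 40.3% did not overlap between groups, 20.3% being higher and 19.9% lower. In the epithelial genes CDH1 and EPCAM and in the repressor SNAI1, the 2 control libraries differed from each other by more than 3 fold, and both cadmium libraries lay between them.

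The libraries held between 51934729 and 61916007 reads assigned to genes. Of the 12924 genes whose normalized count averaged 100 or more, 14.2% differed by more than 2 fold between the controls, and 0.317% did so between the cadmium libraries. As a robust standard deviation, the log2 ratio spread by 0.56 between controls and 0.16 between cadmium libraries. An exact permutation test of 2 against 2 libraries cannot give a p-value below 0.333. Normalized counts below are reads divided by the size factor of the library.

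The levels of the members, compared as RPKM, that is as reads scaled for annotated exon length and for library total, had VIM at the top. It averaged 149 over the 4 libraries, from 135 to 168, and stood above 99.4% of the 33455 genes with a read. FN1 followed with a mean of 54.4, from 47.5 to 64.5, so that no library of FN1 reached the level of VIM. The next 3 genes, SNAI2, ZEB1 and EPCAM, had mean levels of 10.7, 10.3 and 8.26, and their ranges overlapped. SNAI1 had a mean level of 1.98, from 1.02 to 3.17, and CDH1 one of 0.748, from 0.300 to 1.83. The ranges of SNAI1 and CDH1 overlapped, as did those of CDH1 and ZEB2, which had a mean level of 0.503. CDH2 had a mean level of 0.128, from 0.0628 to 0.216, and lay below ZEB2 in every library. The line therefore carried high VIM and FN1 beside low but countable CDH1 and moderate EPCAM, with TWIST1 almost without reads. The annotated exons of ZEB2 add up to 26151 bases, which lowers its level per kilobase if most of them lie outside the transcript made in these cells.

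**Figure D1:**
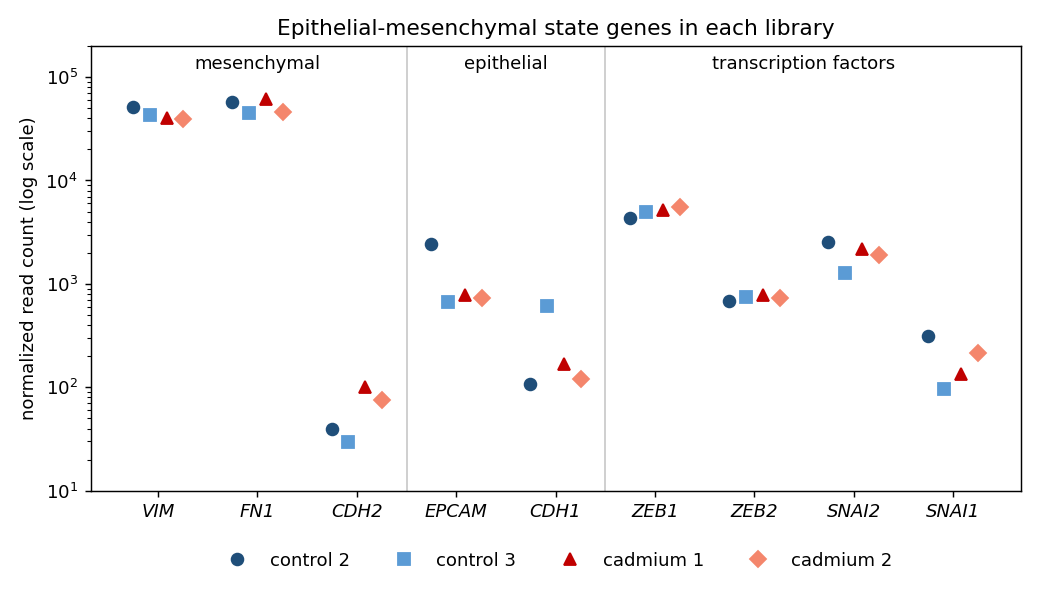
Normalized read count of 9 members in each library, on a log axis, with control libraries and cadmium libraries in separate colours. TWIST1 is left out because 3 of its 4 libraries held no read. VIM, ZEB1 and ZEB2 sit close together in all libraries, whereas the control points of CDH1, EPCAM and SNAI1 are more than 3 fold apart.

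Vimentin, encoded by VIM (chr10:17228241-17237593, plus strand, hg38), is the intermediate filament of mesenchymal cells. Its normalized count was 51044 and 43386 in controls 2 and 3 and 39799 and 39062 in cadmium 1 and 2. Both cadmium libraries were below both controls, with a control mean of 47215 ± 5416 (SD, n = 2) and a cadmium mean of 39430 ± 521. The log2 fold change was -0.26 ± 0.25 (SE), with a 95% interval from -0.75 to 0.23 and an adjusted p-value (DESeq2) of 1.00. Of the exon bases of VIM, 24.6% were shared with genes on the other strand, among them VIM-AS1. Because strand was ignored in counting and reads over several genes were dropped, reads from those bases were not counted for VIM. Without control 3 the log2 fold change was -0.38 with an adjusted p-value (DESeq2) of 0.00391, which would have been a call, and without control 2 it was -0.14.

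Fibronectin, encoded by FN1 (chr2:215360440-215436073, minus strand), is a matrix protein that mesenchymal cells lay down and attach to through integrins. Normalized counts of FN1 were 57861 and 45197 in controls 2 and 3 and 60921 and 46173 in cadmium 1 and 2. Each group held one library near the upper value and one near the lower value, so the groups overlapped. With all libraries the log2 fold change was 0.06 ± 0.29 (SE), and its sign turned to -0.12 without control 3 and to -0.16 without cadmium 1.

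N-cadherin, encoded by CDH2 (chr18:27932879-28177946, minus strand), is the cadherin that replaces E-cadherin in many mesenchymal cells. It was measured on few reads, with 42 and 28 in controls 2 and 3 and 102 and 76 in cadmium 1 and 2. After normalization the counts were 40, 30, 102 and 75, and both cadmium libraries were above both controls. The log2 fold change was 1.34 ± 0.57 (SE), with a 95% interval from 0.22 to 2.47, an unadjusted p-value of 0.0191 and an adjusted p-value (DESeq2) of 0.480. The quasi-likelihood test of edgeR and limma-voom also gave CDH2 as the one member with an unadjusted p-value below 0.05, and neither called it. Those p-values were below 0.05 for 7.39% of all genes in edgeR and for 7.4% in limma-voom. Each mate of a read pair was counted, so counts overstate fragments. With halved counts the unadjusted p-value (DESeq2) of CDH2 rose to 0.0460. Leaving out any single library kept the log2 fold change between 1.10 and 1.57, but such a fit leaves 1 library in a group.

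E-cadherin, encoded by CDH1 (chr16:68737292-68835537, plus strand), is the defining adhesion protein of epithelial cells. Normalized counts of CDH1 were 107 and 615 in controls 2 and 3 and 169 and 119 in cadmium 1 and 2. Control 3 stood alone at the top, and both cadmium libraries lay just above control 2. The means were 361 ± 359 in control cells and 144 ± 35.2 in cadmium-resistant cells, and the log2 fold change was -1.32 ± 0.71 (SE), with a 95% interval from -2.71 to 0.07 and an adjusted p-value (DESeq2) of 0.757. The direction depended on which control was used. Without control 2 the log2 fold change was -2.09 with an adjusted p-value (DESeq2) of 3.39e-07, and without control 3 it was 0.42.

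EPCAM (chr2:47345158-47387601, plus strand) encodes an epithelial adhesion protein that is used to capture carcinoma cells from blood. Normalized counts of EPCAM were 2410 and 662 in controls 2 and 3 and 774 and 728 in cadmium 1 and 2. Here control 2 stood alone at the top, and both cadmium libraries lay just above control 3. The means were 1536 ± 1236 in control cells and 751 ± 33.0 in cadmium-resistant cells, with a log2 fold change of -1.03 ± 0.54 (SE), a 95% interval from -2.10 to 0.03 and an adjusted p-value (DESeq2) of 0.741. Without control 3 the log2 fold change was -1.69 with an adjusted p-value (DESeq2) of 3.56e-18, and without control 2 it was 0.18. The 2 epithelial members thus had lower mean counts in cadmium-resistant cells through opposite controls, CDH1 through control 3 and EPCAM through control 2.

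ZEB1 (chr10:31318495-31529814, plus strand) encodes a zinc finger repressor of CDH1 and was the more abundant of the ZEB pair. Its normalized count was 4302 and 4962 in controls 2 and 3 and 5242 and 5499 in cadmium 1 and 2. Both cadmium libraries were above both controls, by a log2 fold change of 0.21 ± 0.25 (SE), with a 95% interval from -0.28 to 0.71 and an adjusted p-value (DESeq2) of 1.00. Without control 3 the log2 fold change was 0.31 with an adjusted p-value (DESeq2) of 0.0745, and without control 2 it was 0.11.

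ZEB2 (chr2:144364364-144521057, minus strand) encodes a repressor of the same family. Normalized counts of ZEB2 were 681 and 745 in controls 2 and 3 and 786 and 737 in cadmium 1 and 2. The groups overlapped, because cadmium 2 lay between the controls. DESeq2 gave a log2 fold change of 0.09 ± 0.28 (SE), which was 0.03 without control 2 and 0.15 without control 3.

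The 5 members of the miR-200 family are shown because ZEB1 and ZEB2 carry several matches to their seeds, the bases from 2 to 8 that pair with a message. Their mature sequences, from RefSeq, fall into 2 groups that differ by a single base of the seed, which is given in capitals.
hsa-miR-200b-3p: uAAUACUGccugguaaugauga
hsa-miR-200c-3p: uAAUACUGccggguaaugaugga
hsa-miR-429: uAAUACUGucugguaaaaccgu
hsa-miR-200a-3p: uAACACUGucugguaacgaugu
hsa-miR-141-3p: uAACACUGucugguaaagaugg

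The match to the first seed, CAGTATT on the strand of the message, occurred 6 times in the 2540 bases of the ZEB1 3′ UTR and 5 times in the 5370 bases of the ZEB2 3′ UTR, in 1 GENCODE transcript of each gene. The match to the second seed, CAGTGTT, occurred 3 times in ZEB1 and 4 times in ZEB2. Of 19076 annotated 3′ UTRs with a median length of 1083 bases, 0.88% held at least 3 of the first and 1.02% at least 3 of the second. The first match of each kind is shown for both genes, with the match in capitals, as hg38 sequence on the strand of the gene.
ZEB1 chr10:31527619-31527640, plus strand: ttgttttatcttatCAGTATTa
ZEB1 chr10:31528032-31528053, plus strand: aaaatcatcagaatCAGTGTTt
ZEB2 chr2:144389052-144389073, minus strand: gcactaccatacatCAGTATTt
ZEB2 chr2:144389236-144389257, minus strand: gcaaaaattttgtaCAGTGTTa

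The loci of these microRNAs gave no reads. MIR200A, MIR200B, MIR429, MIR200C, MIR141 and the host transcript MIR200CHG (chr12:6963246-6964447) were listed at 0 in all 4 libraries, which allows up to 3 counts in each, or between 0.0485 and 0.0578 CPM (counts scaled for library total). The libraries were prepared for messenger RNA, so mature microRNAs of this size were not measured, and the matches above describe the letters of the UTRs and no regulation in these cells.

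SNAI1 (chr20:49982980-49988886, plus strand) encodes Snail, a short-lived repressor of CDH1. Its normalized count was 317 and 96 in controls 2 and 3 and 135 and 216 in cadmium 1 and 2. Both cadmium libraries lay between the controls. The log2 fold change was -0.23 ± 0.61 (SE), with a 95% interval from -1.43 to 0.97, and it was 0.87 without control 2 and -0.86 without control 3.

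SNAI2 (chr8:48917598-48921740, minus strand) encodes Slug, which is abundant in basal breast cells. Normalized counts of SNAI2 were 2542 and 1289 in controls 2 and 3 and 2175 and 1899 in cadmium 1 and 2. As with SNAI1, control 2 was highest, control 3 was lowest and the cadmium libraries lay between them. DESeq2 gave a log2 fold change of 0.09 ± 0.39 (SE). Without control 2 it was 0.66 with an adjusted p-value (DESeq2) of 0.00381, and without control 3 it was -0.33.

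TWIST1 (chr7:19020991-19117636, minus strand) encodes a basic helix-loop-helix factor of mesoderm. It had 2 reads in cadmium 1 and none in the other libraries, too few for an adjusted p-value or a fold. A count of 0 allows up to 3 counts in a library.

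**Figure D2:**
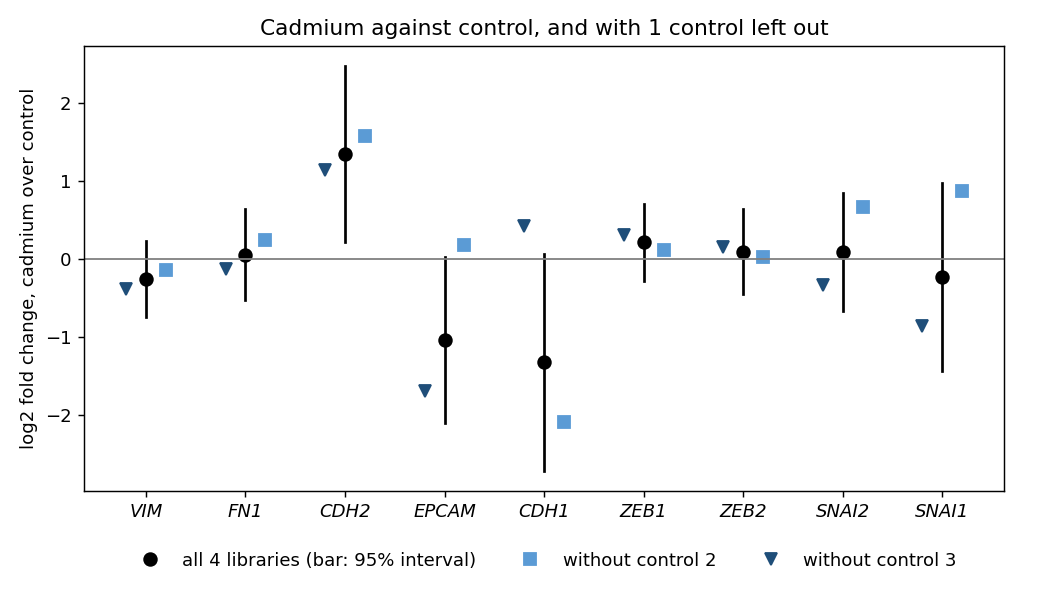
Log2 fold change of cadmium-resistant over control cells for the 9 tested members, with the 95% interval of the DESeq2 fit on all 4 libraries, and the same value after leaving out either control (squares without control 2, triangles without control 3). Points above 0 are higher in cadmium-resistant cells. The values without control 2 and without control 3 fall on opposite sides of 0 for CDH1, EPCAM, SNAI1, SNAI2 and FN1, and all 3 values of CDH2 lie above 1.

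Of the 9 tested members, 5 had a higher and 4 a lower point estimate, and the median log2 fold change was 0.06 beside -0.02 over all tested genes. For CDH1, EPCAM, SNAI1, SNAI2 and FN1, the log2 fold change without control 2 had the opposite sign to that without control 3. The sign was the same in both fits for VIM, CDH2, ZEB1 and ZEB2. These fits assume that the lone control varies like the cadmium pair. With either control left out, far more genes were called in the whole table than with all libraries. A call in such a fit therefore does not single out a member. No member was called when either cadmium library was left out.

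The gap between the 2 controls, without regard to cadmium, set the members apart from each other. It was 5.75 fold for CDH1, larger than in 97.8% of the genes that averaged 100 or more normalized counts. For EPCAM it was 3.64 fold, larger than in 95.5%, and for SNAI1 it was 3.31 fold, larger than in 94.9%. SNAI2 followed with 1.97 fold. It was smaller for the structural genes FN1 and VIM and for the ZEB pair, being 1.28 fold for FN1, 1.18 fold for VIM, 1.15 fold for ZEB1 and 1.09 fold for ZEB2. Control 2 was the higher control for EPCAM, SNAI1, SNAI2, FN1 and VIM, and control 3 was the higher one for CDH1, ZEB1 and ZEB2. Between the cadmium libraries the widest gap of these 8 genes was 1.60 fold, for SNAI1.

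**Figure D3:**
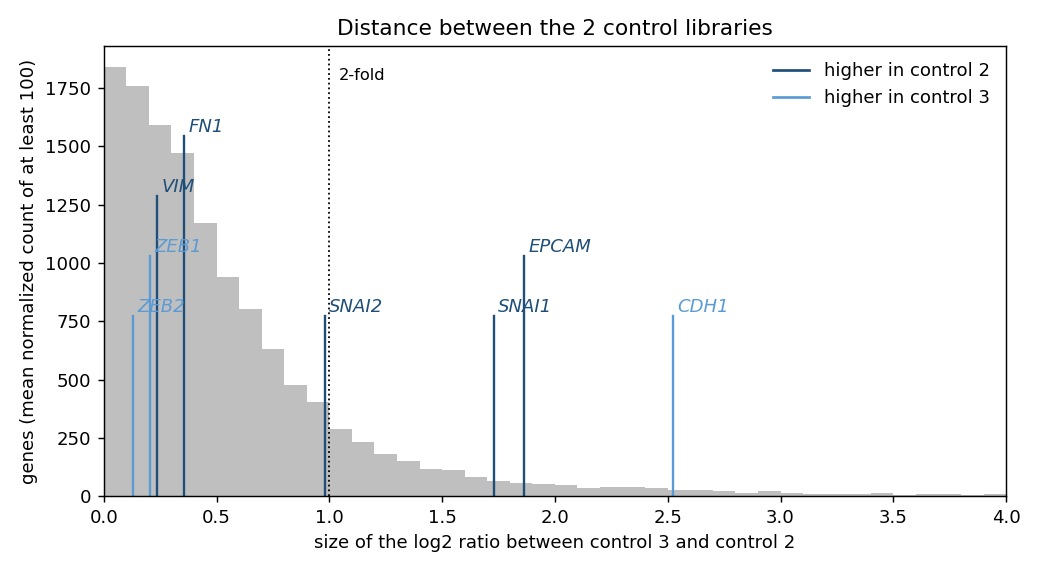
Histogram of the absolute log2 ratio between the 2 control libraries for genes averaging 100 or more normalized counts, with lines at the 8 members that reach that count. The axis ends at 4, and 80 genes lie beyond it. A further 12 genes with a control at 0 have no finite ratio and are not drawn. CDH1, EPCAM and SNAI1 lie in the upper tail, and ZEB2, ZEB1, VIM and FN1 lie near the bulk.

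Each member was also set beside its neighbours on the chromosome. For CDH1, the 40 nearest expressed genes had a median log2 ratio of control 3 over control 2 of -0.26, while CDH1 itself had 2.52, and 0 of the 40 went past it. For EPCAM the neighbours had a median of -0.51, and 0 of 40 went past the ratio of EPCAM itself. For SNAI1 the median was -0.11 and again 0 of 40 went past it, while for SNAI2 it was -0.09 and 3 went past it. The gaps of CDH1, EPCAM and SNAI1 were thus wider than those of all 40 neighbours, and that of SNAI2 was wider than all but 3. VIM and ZEB1, both on chromosome 10, had neighbourhoods with medians of -0.46 and -0.40 for the same ratio. For cadmium-resistant over control cells, the neighbours of VIM had a median log2 fold change of -0.18 beside -0.26 for VIM, and those of ZEB1 had -0.20 beside 0.21 for ZEB1. Less the median of its neighbours, the log2 fold change was -0.08 for VIM, 0.42 for ZEB1 and 0.29 for ZEB2. The same subtraction left CDH1 at -1.36, EPCAM at -0.78 and CDH2 at 1.45, and no member changed sign under it.

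**Figure D4:**
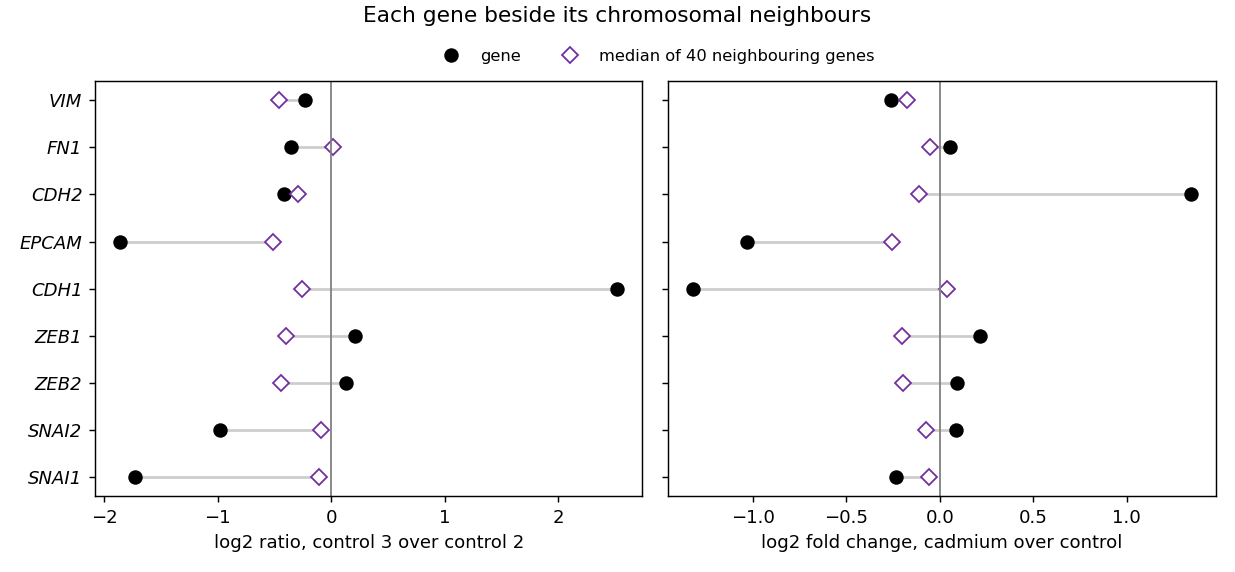
Values of each member beside the median of its 40 nearest expressed neighbours, on the log2 scale, for control 3 over control 2 and for cadmium-resistant over control cells. CDH1, EPCAM and SNAI1 lie far from their neighbourhood medians in the control ratio, and VIM lies near its own in the cadmium comparison.

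A few other genes had much the same profile over the 4 libraries as the 2 widest-ranging members. The likeness was measured as the largest difference between log2 profiles centred on their means, over 4 libraries only. For CDH1, which spanned 2.51 on this scale, the closest were TSPAN13, CPE and DDX60, within 0.20, 0.27 and 0.28. CPE, which encodes the prohormone-processing enzyme carboxypeptidase E, had normalized counts of 1593 and 7276 in controls 2 and 3 and 2308 and 2060 in cadmium 1 and 2. For EPCAM, which spanned 1.86, the closest were NR4A2, PCOLCE2 and GTPBP6, within 0.06, 0.07 and 0.10. NR4A2, which encodes an orphan nuclear receptor, had normalized counts of 1417 and 367 in controls 2 and 3 and 424 and 415 in cadmium 1 and 2, so it was again high in control 2 alone.

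Genes of the surrounding programme were taken as 8 lists with 173 genes, of which 155 were tested. These lists were chosen with earlier results of these data known, so the shares below describe the lists and do not test them. DESeq2 called 3 of them, or 1.94%, beside 1.14% of all genes, and 18, or 11.6%, had an unadjusted p-value below 0.05, beside 6.92% of all genes. The groups did not overlap for 68 of the 155, or 43.9%, beside 40.3% of all genes. All 3 called genes belonged to the list of TGF-beta and BMP signalling, of which TGF-beta is the main extracellular inducer of the transition. In that list 2 of 28 tested genes were called higher and 1 lower. Of the 28, 8 had a log2 fold change above 0 and 20 had one below 0. The list median was -0.22, beside -0.02 over all tested genes, and was not adjusted for chromosomal neighbours. For some genes the neighbours were lower too, with medians of -0.33 for SMAD3, itself at -0.37, and -0.40 for SMAD4, itself at -0.36. For others they were near 0, as for SMAD1, at -0.54 with a neighbour median of -0.04.

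TGFBR2 encodes the receptor that binds TGF-beta ligands. Normalized counts of TGFBR2 were 15652 and 18679 in controls 2 and 3 and 33154 and 28904 in cadmium 1 and 2. Both cadmium libraries were well above both controls, by a log2 fold change of 0.85 ± 0.26 (SE) with an adjusted p-value (DESeq2) of 0.0975. The call was lost with TMM factors, without independent filtering, at a threshold of 0.05, and in edgeR and limma-voom.

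ACVRL1 encodes ALK1, a type I receptor for BMP9 and BMP10 best known in endothelium. It had 6 and 0 reads in controls 2 and 3 and 118 and 120 in cadmium 1 and 2. The transcript was close to undetected in control cells, so the DESeq2 log2 fold change of 5.33 ± 0.90 (SE), at an adjusted p-value of 3.21e-06, rests on 6 control reads.

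LTBP3 encodes a protein that holds latent TGF-beta in the matrix. Its normalized count was 3918 and 4941 in controls 2 and 3 and 1606 and 1516 in cadmium 1 and 2. It fell in cadmium-resistant cells, with a log2 fold change of -1.50 ± 0.27 (SE) and an adjusted p-value (DESeq2) of 2.21e-05. The calls of ACVRL1 and LTBP3 were likewise lost in edgeR and limma-voom, where none of the 3 genes had an adjusted p-value below 0.656. Over all 4 ways of leaving out 1 library, the log2 fold change ran from -1.66 to -1.34 for LTBP3, from 0.73 to 0.98 for TGFBR2 and from 4.37 to 9.23 for ACVRL1, the last value being set against control 3 alone, which had no read. Less the median of its neighbours, LTBP3 was at -1.17. All 3 were called when 1 control, whichever it was, was left out. DESeq2 adjusted p-values without cadmium 1 were 0.899 for LTBP3, 1.00 for TGFBR2 and 0.135 for ACVRL1, and those without cadmium 2 were 1.00 for LTBP3 and TGFBR2 and not given for ACVRL1. The other lists held no called gene in DESeq2, edgeR or limma-voom.

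**Figure D5:**
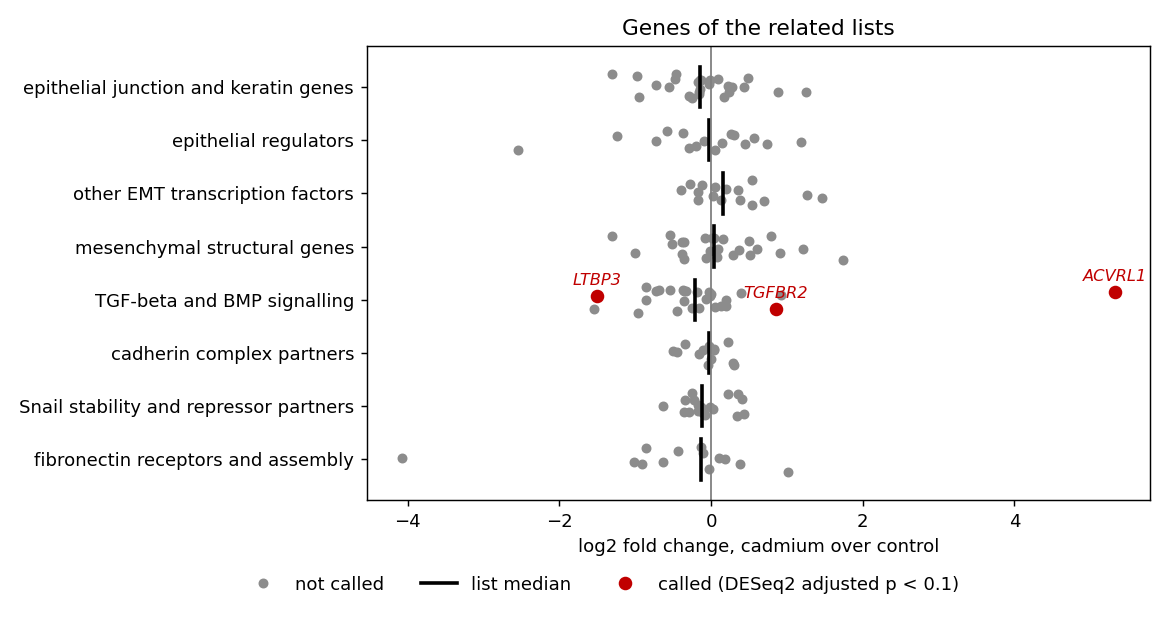
Log2 fold change of cadmium-resistant over control cells for every tested gene of the 8 lists, one row of points per list, with the list median marked. The medians lie between -0.22 and 0.16, and the called genes TGFBR2, ACVRL1 and LTBP3 all belong to the TGF-beta and BMP list.

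The 26 tested epithelial junction and keratin genes had a median of -0.14 in log2 fold change. In 3 of them the value was lower at an unadjusted p-value below 0.05. Of all tested genes, 6.92% had such a p-value in either direction. The lowest p-value belonged to CGN, which encodes the tight junction protein cingulin, with a log2 fold change of -1.30 and an adjusted p-value (DESeq2) of 0.302. It was -0.50 without control 2 and -1.83 without control 3, so its size followed the control used. In the upward direction the lowest p-value belonged to CLDN1, a claudin of tight junctions, with a log2 fold change of 0.88 and an adjusted p-value (DESeq2) of 0.761. That of CLDN1 was 0.45 without control 2 and 1.48 without control 3. Among the 16 tested epithelial regulators the median was -0.02. ESRP2, a splicing factor of epithelial cells, had normalized counts of 1813 and 558 in controls 2 and 3 and 460 and 546 in cadmium 1 and 2. Control 2 stood alone at the top, and the log2 fold change of -1.24, at an adjusted p-value (DESeq2) of 0.473, shrank to -0.15 without control 2 and was -1.86 without control 3. EHF, an epithelial ETS factor, was at 0.56 with an adjusted p-value (DESeq2) of 0.822, at 0.26 without control 2 and at 0.94 without control 3. ELF5, RAB25, MIR200CHG and MIR205HG were listed at 0 in all libraries.

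The 25 tested mesenchymal structural genes had a median of 0.04 in log2 fold change, and 7 had an unadjusted p-value below 0.05, 5 higher and 2 lower, where 6.92% of all genes did. VCAN, which encodes the matrix proteoglycan versican, was measured on few reads, with 18 and 23 in controls 2 and 3 and 68 and 71 in cadmium 1 and 2. Its log2 fold change was 1.73 with an adjusted p-value (DESeq2) of 0.295, which rose to 0.593 with halved counts. The log2 fold change lay between 1.49 and 2.00 with 1 library left out. CDH11, a mesenchymal cadherin, had normalized counts of 1546 and 7550 in controls 2 and 3 and 1676 and 2015 in cadmium 1 and 2, so that, like CDH1, it had control 3 alone at the top. Its log2 fold change was -1.30 with all libraries, -2.04 without control 2 and 0.24 without control 3.

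Of the 16 tested other EMT transcription factors, the median was 0.16. SOX4, which encodes an HMG-box factor, had normalized counts of 1548 and 3952 in controls 2 and 3 and 9009 and 6205 in cadmium 1 and 2. Both cadmium libraries were above both controls, with a log2 fold change of 1.47 ± 0.46 (SE) and an adjusted p-value (DESeq2) of 0.118. It was 0.94 without control 2 and 2.29 without control 3, the latter at an adjusted p-value (DESeq2) of 8.18e-06. TCF3, which encodes the E proteins E12 and E47, was at -0.39 with an adjusted p-value (DESeq2) of 0.901, at -0.24 without control 2 and at -0.55 without control 3.

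The 13 tested cadherin partners had 0 genes at an unadjusted p-value below 0.05 and a median of -0.03. The lowest p-values among them belonged to NECTIN3, an adhesion molecule, at 0.30, and to ADAM10, a protease that cleaves cadherins, at -0.50, with adjusted p-values (DESeq2) of 1.00 and 0.842. The 18 tested Snail stability and repressor partners also had 0 genes at an unadjusted p-value below 0.05, with a median of -0.12. The lowest p-values there belonged to GSK3B, a kinase that marks Snail for degradation, at 0.40, and to the corepressor CTBP1, at -0.36, with adjusted p-values (DESeq2) of 0.864 and 0.950. Of these 4 genes, NECTIN3, ADAM10 and CTBP1 were farther from 0 without control 3 than without control 2, by 0.43 against 0.17, -0.76 against -0.20 and -0.52 against -0.19. Of the 13 tested fibronectin receptors and assembly genes, 3 had an unadjusted p-value below 0.05, 1 higher and 2 lower. Of all tested genes, 6.92% had such a p-value in either direction. The median of this list was -0.13. FBLN1, which encodes the fibronectin-binding matrix protein fibulin-1, had a log2 fold change of 1.01 with an adjusted p-value (DESeq2) of 0.561, which was 0.55 without control 2 and 1.67 without control 3. ITGB3, an integrin subunit that pairs with ITGAV, was at -0.86 with an adjusted p-value (DESeq2) of 0.357, and between -1.08 and -0.68 with 1 library left out. Of the 137 list genes averaging 100 or more normalized counts, 37, or 27.0%, differed by more than 2 fold between the controls. Of all such genes, 14.2% did so. Because the lists were chosen with earlier results known, the difference between these shares is no test. Between the cadmium libraries, 0 of the 137 differed by more than 2 fold.

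Markers of the labelled line and of other cells were read beside these results. ESR1 had between 2 and 20 reads and PGR between 6 and 30 in a library, and KRT5 was listed at 0. The summed normalized count of the 10 breast luminal and basal markers ranged from 6330 to 6989 in control cells and from 5380 to 5616 in cadmium-resistant cells. Only 2 of the 10 averaged 100 or more normalized counts, so the sum stands for few genes. Of the 7 tested, 6 had a log2 fold change above 0 and 1 had one below 0. That of the 6 endothelial markers ranged from 3261 to 4578 in control cells and from 6406 to 6932 in cadmium-resistant cells, most of it ROBO4, while CDH5 had between 2 and 16 reads. The leukocyte markers PTPRC, CD3E, CD14, CD68 and LYZ summed to between 248 and 315 in control cells and to between 158 and 181 in cadmium-resistant cells, with CD3E at 0 in all 4 libraries. Of the 4 endothelial markers tested, 3 had a log2 fold change above 0 and 1 had one below 0. ACVRL1, itself active in endothelium, was higher where the endothelial sum, mostly ROBO4, was higher, in samples labelled as the MDA-MB-231 line only. Whether any other cells had a part in this was not tested. In bulk samples, fewer cells of a type and less RNA per cell cannot be told apart.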

How the data were processed

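RNA of MDA-MB-231 cells was sequenced from 2 control and 2 cadmium-resistant libraries. The deposited table holds unnormalized counts of reads for each gene. The authors, as their methods and the header state, aligned reads to hg38 with HISAT2 and counted them with featureCounts 2.0.1 on an Ensembl annotation, without strand, with each mate counted separately and reads over several genes dropped. Between 70.6% and 71.5% of counts from 1 to 20 were even, so counts overstate fragments. Limits drawn from counts cover counting error only.

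Symbols matched 61369 of 61541 identifiers. Groups came from the labels. The control columns are numbered 2 and 3 and the labelled controls 1 and 2, and both columns were therefore mapped to the group without a number. DESeq2 1.42.0 was fitted in R 4.3.3 to all genes (design: group, median-of-ratios size factors, two-sided Wald test, Benjamini-Hochberg adjustment after independent filtering at a mean of 7.69, threshold 0.1), following the tool used by the study. Alternatives were edgeR 4.0.16, limma-voom (limma 3.58.1), upper-quartile or TMM factors in DESeq2, no filtering, a minimum of 10 counts in 2 libraries, a threshold of 0.05, halved counts, subtraction of the median of 40 neighbouring genes, and leaving out each library. The fits were tested on simulated data.

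Members and lists were chosen with earlier results of these data known. Named genes were the members, called list genes, the list genes of lowest p-value in each direction with a mean of at least 10, and the 3 genes most like each of the 2 widest-ranging members. Seed matches were searched in GENCODE 3′ UTRs, 1 transcript per gene, and microRNA sequences came from RefSeq. One leukocyte marker is not reported here.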

Additional observations from a re-analysis of the deposited data

How the results depend on the processing

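DESeq2 called 119 genes higher and 106 lower. The edgeR quasi-likelihood test and limma-voom each called 0 in both directions and 0 of the list genes, with smallest adjusted p-values of 0.674 and 0.656 and with 1422 and 1423 genes at an unadjusted p-value below 0.05. Upper-quartile factors gave 152 higher and 88 lower, so that 63.3% rather than 52.9% of calls were higher, no filtering gave 86 and 81, and a threshold of 0.05 gave 81 and 75. Halved counts gave 83 and 83. Leaving out 1 library gave between 9 and 2678 genes higher and between 5 and 3511 lower, between 0 and 3 members called, and between 0 and 88 list genes called, against 3 with all libraries. Leaving out control 3 gave the highest counts, and leaving out either cadmium library gave the lowest. No member was called under any alternative that kept all 4 libraries. The log2 fold change changed sign on leaving out 1 library for CDH1 (-2.09 to 0.42), EPCAM (-1.69 to 0.18), SNAI1 (-0.86 to 0.87), SNAI2 (-0.33 to 0.66), FN1 (-0.16 to 0.24) and CDH11 (-2.04 to 0.24). SNAI1 was 0.06 and SNAI2 -0.02 without cadmium 1, and FN1 was -0.12 without control 3. The cause was not tested. No other member or named list gene changed sign under any alternative run, and the genes chosen for their likeness to CDH1 and EPCAM were not refitted. No paired analysis was possible because numbers 2 and 3 head the control columns and numbers 1 and 2 the labelled controls.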

Other observations

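Genes of the lists beside the members with wide gaps between the controls were read after their values were seen, and none was called by DESeq2. TNS1, which encodes the focal adhesion protein tensin, had normalized counts of 2352 and 47.8 in controls 2 and 3 and 83.6 and 59.2 in cadmium 1 and 2. TGM2, a transglutaminase that crosslinks matrix, had 156904, 28257, 42478 and 48839 in the same order. Both were high in control 2 alone, as was EPCAM. ID1, a target of BMP signalling, had 3597 and 27698 in controls 2 and 3 and 8275 and 9025 in cadmium 1 and 2, and ID3 had 463, 5680, 1638 and 1753. For both ID genes the cadmium libraries lay between the controls. The keratin gene KRT7 had 20681 and 76362 in controls 2 and 3 and 34097 and 35500 in cadmium 1 and 2, whereas the keratin pair KRT8 and KRT18 differed little between controls, with 56184 and 57920 for KRT8 and 24308 and 25529 for KRT18.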
